A study of Arabidopsis thaliana with 2 samples.

Results

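Transcripts of 4 cold- and drought-responsive genes, COR15A (AT2G42540), COR15B (AT2G42530), COR47 (AT1G20440) and LEA4-5 (AT5G06760), were followed in Arabidopsis thaliana seedlings of the ros1-1 mutant and of the C24 wild type. The genes were chosen by symbol and locus, with their signals on these arrays already known, and each is read by 1 probe set. They are 4 of 13286 genes that had a probe set of their own in the array annotation used here. ROS1 encodes a DNA glycosylase that removes methylated cytosines, and the ros1-1 line carries its mutation in the C24 background. Seedlings of both genotypes were 15 days old, and were grown on MS medium at 22 °C with 16 h of light and 8 h of darkness. No cold treatment is named for either genotype, so the values are levels at ordinary growth temperature. Total RNA of whole seedlings was hybridised to 1 Affymetrix array for ros1-1 and 1 for C24 wild type. With no replicates, no test was possible, and every difference describes these 2 arrays. Whether each RNA was pooled from several plants is not given in the sources used here.

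Late embryogenesis abundant (LEA) proteins are hydrophilic, mostly disordered proteins that accumulate in maturing seeds and in vegetative tissue that is drying or freezing. In leaves, chilling switches on the CBF transcription factors, which bind the promoters of cold-regulated (COR) genes and raise their transcripts within hours, and abscisic acid (ABA) acts on many of the same genes through a separate set of factors. COR15A and COR15B encode closely related LEA proteins of the chloroplast stroma that protect membranes and enzymes during freezing. COR47 encodes an acidic dehydrin, a LEA protein with lysine-rich repeats that binds membranes. LEA4-5 encodes a LEA protein of another group, which shields enzymes from inactivation under water deficit.

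The 2 arrays were alike in scale, with a median signal of 213 in ros1-1 and 216 in C24 wild type over 22746 probe sets. Signals under 132, the 40th percentile of both arrays together, were taken as a floor, and a probe set counted as measured when at least 1 array reached it. The log2 ratios given here are ros1-1 over C24 wild type, and the 13169 probe sets that reached the floor on both arrays had a median of -0.01 and an SD of 0.27. Probe sets of the same gene scattered about their gene's mean log2 ratio with an SD of 0.19 in 61 genes, a measure of technical error that leaves out differences between plants and RNA preparations. For 9 probe sets of spiked control transcripts above the floor, log2 ratios ran from -0.25 to 0.26. The tissue label was checked against marker genes. The leaf markers with a probe set of their own, 2 of 6, had signals from 15226 to 18035. PYK10, an abundant root beta-glucosidase, had 13729 in ros1-1 and 13028 in C24 wild type. It was 1 of the 3 root markers, of 5, with a probe set of their own. The root hair expansins EXPA18 and EXPA7 had log2 ratios of 0.51 and 0.33, and the leaf genes RCA and LHCB4.1, of carbon fixation and light harvesting, of 0.21 and -0.15. Whether the share of root or leaf tissue had a part in the results was not tested. Of the seed markers, 0 of 5 had a probe set of their own in this annotation.

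COR15A and COR15B, nuclear genes for chloroplast proteins, had signals in the ros1-1 array that were slightly under 50 percent of those in the C24 wild-type array. COR47 differed by less than the scatter of probe sets of 1 gene, and LEA4-5 was too dim to be measured on either array. Of the 3 measured genes, 2 were thus at least 2-fold lower in ros1-1 and 0 at least 2-fold higher. Over all 14126 measured probe sets, 0.241% were at least 2-fold lower and 0.205% at least 2-fold higher. The genes were chosen with these signals known, so nothing is read from that count. In RNA of whole seedlings, fewer cells that express a gene and less transcript per cell cannot be told apart.

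COR15A had a signal of 341 in ros1-1 and 729 in C24 wild type. The mutant array was thus at 46.8% of wild type, 2.14-fold lower, a log2 ratio of -1.10. Both signals lay well above the floor. The ratio was 5.70 times the scatter of probe sets of 1 gene. Among the probe sets measured on both arrays, 20 had a lower ratio. Of the 500 probe sets closest to COR15A in mean signal, whose log2 ratios had an SD of 0.30, 3 were as low or lower. COR15A was chosen with these signals known, so its size against the scatter and its place among probe sets are a description only. Within its array, COR15A was the 8816th brightest of 22746 probe sets in ros1-1 and the 4818th in C24 wild type, at percentiles 61.2 and 78.8. A rank follows the affinity of a probe set as well as the amount of transcript, so ranks were compared between arrays and not between genes.

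COR15B gave nearly the same pair of values. Its signal was 327 in ros1-1 and 666 in C24 wild type, which places the mutant array at 49.0% of wild type, 2.04-fold lower, with a log2 ratio of -1.03. COR15B stood only just past the 2-fold line. Among the probe sets measured on both arrays, 25 had a lower ratio, and 3 of the 500 closest in mean signal were as low or lower. COR15B too was chosen with its signals known, so these places are a description only. Its rank was 9028 in ros1-1 and 5242 in C24 wild type, or percentiles 60.3 and 77.0. The log2 ratios of COR15A and COR15B differed by 0.07, less than the scatter of 0.19. The encoded proteins are close relatives, and whether the 2 probe sets share signal was not tested, because probe sequences were not used here. With an offset equal to the floor added to each signal in place of the floor, the log2 ratios were -0.86 for COR15A and -0.80 for COR15B, under 2-fold.

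COR47, the dehydrin, had a signal of 2731 in ros1-1 and 2923 in C24 wild type. The log2 ratio of -0.10, 1.07-fold lower, was 0.51 times the scatter, so the arrays did not differ beyond it. Of the 500 probe sets closest to it in mean signal, 115 were as low or lower. COR47 was bright on both arrays, with 4.93% of probe sets above it in ros1-1 and 4.39% in C24 wild type. Its rank was 1123 in ros1-1 and 999 in C24 wild type.

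LEA4-5 had a signal of 51.9 in ros1-1 and 50.6 in C24 wild type. Both values lay under the floor of 132, which sets its ratio to 0 by construction, so none is given for it. About 3 in 4 probe sets were brighter on each array, 76.0% in ros1-1 and 76.0% in C24 wild type. A difference in LEA4-5 was not detectable at this signal.

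**Figure D1:**
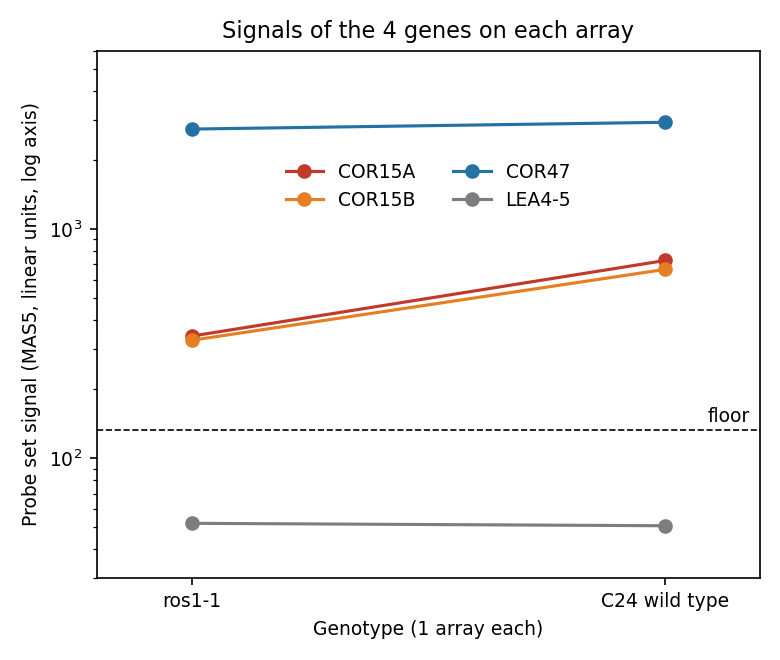
Probe set signal (MAS5 units, log axis) of the 4 genes on the ros1-1 array, left, and the C24 wild-type array, right, with 1 point per array and a dashed line at the floor of 132. COR15A and COR15B run side by side and are lower in ros1-1, COR47 is near 2731 and 2923, and LEA4-5 lies under the floor on both arrays.

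**Figure D2:**
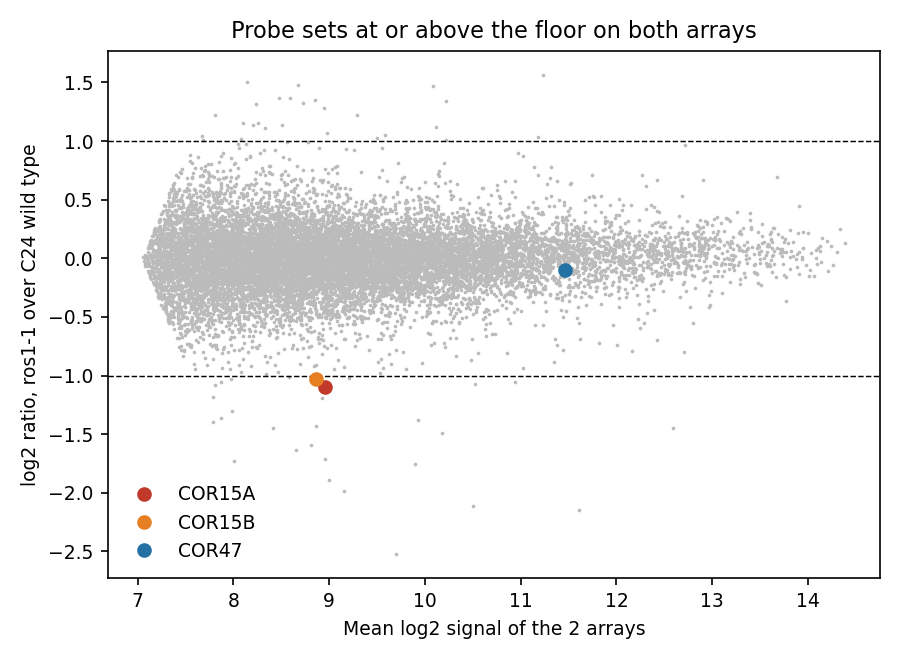
The log2 ratio of ros1-1 over C24 wild type against the mean log2 signal for the 13169 probe sets that reached the floor on both arrays (grey), with dashed lines at 2-fold. COR15A and COR15B lie at the lower edge of the cloud, at -1.10 and -1.03, and COR47 lies inside it at -0.10.

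The cold-response list held 22 genes, of which 6 had a probe set of their own and 5 were measured. Of these 5, COR15A and COR15B, 2 in all, were at least 2-fold lower in ros1-1, and 0 were at least 2-fold higher. The median log2 ratio of the 5 was -0.56, against -0.01 over all measured probe sets. COR15A, COR15B and COR47 were chosen with their values known, so this median is a description only. Without the COR15 pair, 0 of 3 were at least 2-fold lower, and the median was -0.26. LTI30, a cold- and ABA-induced dehydrin, had a signal of 1309 in ros1-1 and 1937 in C24 wild type, a log2 ratio of -0.56. COR27, a regulator that links cold responses and the circadian clock, had 155 in ros1-1 and 186 in C24 wild type, a log2 ratio of -0.26 close to the floor. Its relative COR28 (AT4G33980) was under the floor on both arrays, at 80.4 in ros1-1 and 107 in C24 wild type. The other 16 genes of the list, among them RD29A, KIN1, ERD10 and COR413IM1, had no probe set of their own in this annotation and were not analysed here.

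Of the 53 genes in the LEA protein list, 37 had a probe set of their own. Of these 37, 13 were measured and 24, or 64.9%, were too dim on both arrays. Of all 13286 genes with a probe set of their own, 7446 were measured. Of all probe sets, which include those with no gene or several, 37.9% were too dim on both arrays. The other 16 genes of the LEA list were not analysed here. Of the 13 measured genes, 2 were at least 2-fold lower in ros1-1, again COR15A and COR15B, and 0 were at least 2-fold higher. Of these 13, 10 had a negative and 3 a positive log2 ratio, and the median was -0.17. Over all 14126 measured probe sets, 50.8% had a negative log2 ratio and the median was -0.01. COR15A, COR15B and COR47 were chosen with their values known, so these LEA counts are a description only. Without the COR15 pair, 0 of 11 were at least 2-fold lower and the median was -0.10.

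Among the dehydrins, the group of COR47, 4 of 6 genes with a probe set of their own were measured, and their log2 ratios ran from -0.56 to 0.19. LTI30 was the lowest. AT1G54410, which encodes the small histidine-rich dehydrin HIRD11, had 5213 in ros1-1 and 6336 in C24 wild type, a log2 ratio of -0.28. AT4G38410 had 177 in ros1-1 and 155 in C24 wild type, a log2 ratio of 0.19. The dehydrin genes LEA (AT2G21490) and AT4G39130 stayed under the floor, with no signal above 46.4. Of the 4 measured dehydrins, 0 were thus at least 2-fold different, and COR47 and AT4G38410 did not differ beyond the scatter.

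The group of LEA4-5 was not measurable here. All 3 of its genes, LEA4-5, AtLEA4-1 and LEA18, stayed under the floor, with signals from 50.6 to 109, and no ratio is given for them. Of the remaining LEA genes, 9 of 28 with a probe set of their own were measured, the COR15 pair included. DI21, a drought-induced LEA gene, had a signal of 549 in ros1-1 and 717 in C24 wild type, a log2 ratio of -0.38. M17, which encodes a LEA protein of maturing seeds, had 37.8 in ros1-1 and 173 in C24 wild type, and since only the wild-type array reached the floor it was at least 1.31-fold lower. AT3G02480 had 576 in ros1-1 and 478 in C24 wild type, a log2 ratio of 0.27, and AT2G44060, also called LEA26, had 4621 in ros1-1 and 3910 in C24 wild type, a log2 ratio of 0.24. The other 3 measured genes, AT2G23120, AT1G54890 and AT2G46140, had log2 ratios of -0.17, -0.09 and -0.04, within the scatter. Under the floor on both arrays were 19 genes, with no signal above 99.0: AT1G52680, AT1G72100, AT2G03740, AT2G03850, AT2G18340, AT2G23110, AT2G33690, M10, AT2G42560, AT3G15670, AT3G17520, AT3G22490, AT3G53040, AT3G53770, AT4G13230, AT4G21020, AT4G36600, AT5G27980 and AT5G44310.

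**Figure D3:**
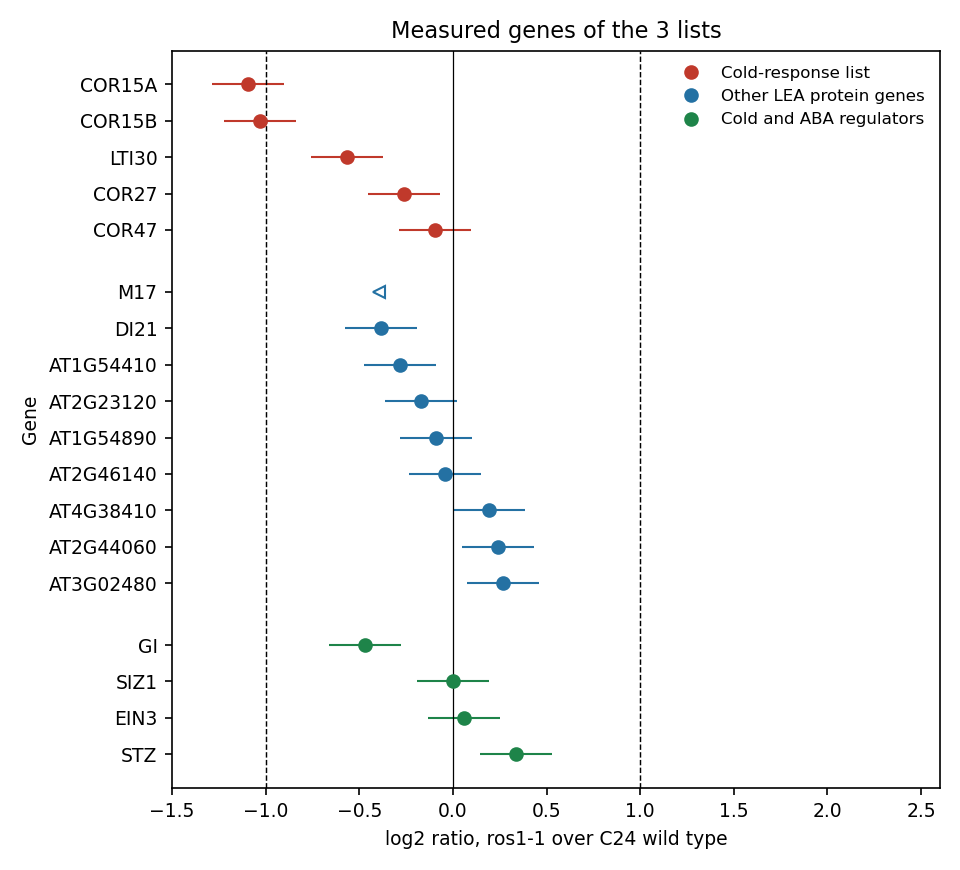
The log2 ratio of ros1-1 over C24 wild type for each measured gene of the cold-response list, of the rest of the LEA protein list, and of the cold and ABA regulator list. Bars are the scatter of probe sets of 1 gene (SD 0.19), the open triangle of M17 is a bound, and dashed lines mark 2-fold, which only COR15A and COR15B pass.

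Few of the factors known to act on COR genes could be read. Of 45 genes in the cold and ABA regulator list, 4 had a probe set of their own, all 4 were measured, and 0 were at least 2-fold higher or lower. Their median log2 ratio was 0.03. SIZ1, a SUMO ligase that stabilises the CBF activator ICE1, had 1144 in ros1-1 and 1146 in C24 wild type in its brighter probe set, and its probe sets gave log2 ratios of 0.00 and 0.02. EIN3, an ethylene-signalling factor that represses CBF genes, had 1344 in ros1-1 and 1289 in C24 wild type, a log2 ratio of 0.06. STZ, the zinc-finger repressor also called ZAT10, had 1025 in ros1-1 and 813 in C24 wild type, a log2 ratio of 0.33. GI, a circadian clock gene whose product takes part in freezing tolerance, had 435 in ros1-1 and 604 in C24 wild type, a log2 ratio of -0.47. The GI and COR15 signals were thus lower on the same array. Whether the seedlings of both genotypes were collected at the same hour is not given in the sources used here, and the part of collection time in the COR15 values was not tested. The other 41 genes of this list, including CBF1, CBF2, CBF3 (DREB1A) and ICE1, were not analysed here.

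COR15A and COR15B lie next to each other on chromosome 2 in the TAIR10.1 gene order. Only genes with a probe set of their own in this annotation entered the neighbours and pairs below. Other expressed genes may therefore lie between those named, and they were not read. The nearest measured genes on either side, so defined, were less than 2-fold different. AT2G42520, directly before COR15B, had a signal of 725 in ros1-1 and 785 in C24 wild type, a log2 ratio of -0.11. TBL39 (AT2G42570), 3 protein-coding genes after COR15A, had 374 in ros1-1 and 401 in C24 wild type, a log2 ratio of -0.10. Further out, AT2G42490 was at -0.02, AT2G42450 at 0.35 and AT2G42390 at -0.15 before the pair, and AT2G42690 at 0.08, AT2G42710 at -0.41 and AT2G42760 at -0.38 after it. The 8 nearest measured genes with a probe set of their own thus ran from -0.41 to 0.35, all less than 2-fold different. AT2G42560, a LEA gene between COR15A and TBL39, was under the floor on both arrays. Among 2258 pairs of directly adjacent measured protein-coding genes, 1 pair, COR15A and COR15B, had both genes at least 2-fold lower in ros1-1, and 1 other pair had both at least 2-fold higher. Of 7446 measured genes, 15 were at least 2-fold lower and 12 at least 2-fold higher. The COR15 pair was chosen with its signals known, so these counts are a description only.

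**Figure D4:**
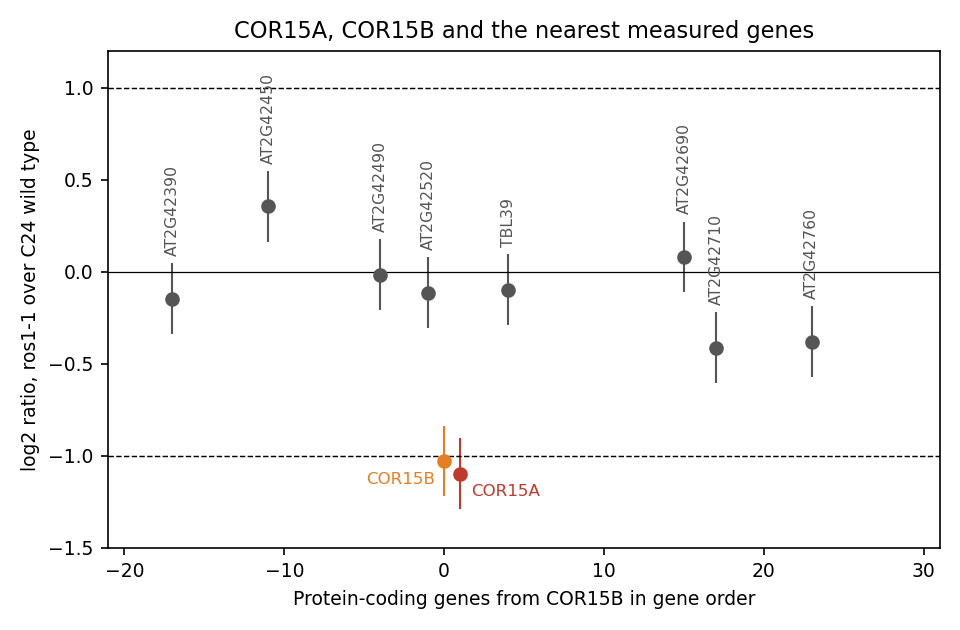
The log2 ratio of ros1-1 over C24 wild type for COR15B, COR15A and the 4 nearest measured genes on either side, by position in protein-coding genes counted from COR15B. Only genes with a probe set of their own are shown. Bars are the scatter of probe sets of 1 gene (SD 0.19), and dashed lines mark 2-fold: the pair lies at -1.03 and -1.10 and its neighbours between -0.41 and 0.35.

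COR47 lies on chromosome 1 and LEA4-5 on chromosome 5. Their nearest measured neighbours with a probe set of their own showed small differences too. Around COR47, AT1G20430 was at a log2 ratio of 0.17, AT1G20410 at -0.08 and OPCL1, which encodes a ligase of jasmonate synthesis, at -0.03. AT1G20490 reached the floor in wild type only, with 99.3 in ros1-1 and 138 in C24 wild type. ERD10, the dehydrin gene directly after COR47, had no probe set of its own in this annotation. Around LEA4-5, AT5G06700 was at -0.21, AT5G06660 at -0.04, AT5G06770 at 0.06 and AT5G06790 at 0.29.

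The genes with the pair of signals most like that of COR15A were sought by distance in log2 signal over the 2 arrays. The search took in only genes with a probe set of their own that reached the floor on both arrays. Among these, COR15B was the nearest, at a distance of 0.14. AT2G18980 followed at 0.16, with 381 in ros1-1 and 733 in C24 wild type, and then AT5G51560 at 0.21, AT3G15680 at 0.24 and AT4G37020 at 0.24. Their log2 ratios were -0.95, -0.82, -0.76 and -0.87, each under 2-fold. With 2 arrays, such likeness describes a pair of values only.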

How the data were processed

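The authors deposited 1 linear intensity per probe set and array, and MAS5 made these summaries, per the submitters' processing notes. The sources used here give no software version, scaling target or detection calls. With the outer 2% of values at each end removed, both arrays had a mean of 500.04, and no further scaling was applied. Of 22810 probe sets, 64 controls were set aside. Names came from the platform annotation, matched by gene ID to the gene table of TAIR10.1. In this annotation 13513 probe sets had 1 gene, 503 several and 8730 none, and 13436 matched the table, which gave names and gene order only.

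Ratios are log2 of ros1-1 over C24 wild type after values under the floor were raised to it. With 1 array at or above the floor a ratio is a bound, and with 0 none is given. Where a listed gene had several probe sets, the brightest was taken. Differences were counted by a rule of at least 2-fold, with no test. The number of arrays, 1 per genotype, limits the precision of every value. The steps were tried on simulated data with planted changes larger than those of COR15A and COR15B. That trial checks the code and does not bear on differences near 2-fold. The steps were run in Python 3.11.15 with statsmodels 0.14.6.

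Members and lists were chosen with earlier results of these data known, and the dehydrin and LEA4-5 groups were drawn from the LEA list after its values were seen. The lists were cold response, cold and ABA regulators, and LEA proteins, with markers of leaf, root and seed. Named were the 4 members, in each list the genes at least 2-fold different or, where there were 0, the 4 with the largest ratio, the genes under the floor, the nearest measured neighbours (4 on each side of the COR15 pair, 2 elsewhere), and the 5 genes most like COR15A. The other measured genes of the cold-response and LEA lists, the dimmer SIZ1 probe set, the marker genes, and genes without a value fall outside this rule and were named after the values were seen. Alternatives were floors at the 25th and 60th percentile, no floor, an offset equal to the floor, median centring, quantile normalization, lowess with a span of 0.3, thresholds of 1.5-fold and 3-fold, and ranks among plain _at probe sets. Leaving the COR15 pair out of the lists was added after the data were seen.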

Additional observations from a re-analysis of the deposited data

How the results depend on the processing

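COR15A was at least 2.11-fold and COR15B at least 2.01-fold lower in ros1-1 with either other floor, with no floor, and under median centring, quantile normalization and lowess. The floors could not move either ratio, because both genes lay above each floor on both arrays. COR15B in ros1-1 did so only just, at 327 against the 60th percentile of 325. Median centring, quantile normalization and lowess moved these ratios little, on arrays that were already alike in scale. COR15B was then close to the 2-fold line, at a log2 ratio of -1.005 with quantile normalization and -1.007 with lowess. An offset in place of the floor gave -0.86 for COR15A and -0.80 for COR15B, because it shrinks ratios of moderate signals, and then 0 genes of either list were at least 2-fold lower. The log2 ratio of LEA4-5, set to 0 by the floor, was 0.04 with no floor and 0.01 with the offset. Probe sets at least 2-fold lower and higher in ros1-1 numbered 99 and 80 with the 25th percentile as the floor, 19 and 15 with the 60th, 20 and 12 with the offset, 1251 and 1384 with no floor, 276 and 261 at 1.5-fold, and 10 and 1 at 3-fold. LEA genes at least 2-fold lower numbered 4 with the lower floor and 9 with no floor, and 0 in both the cold-response and the LEA list at 3-fold or without the COR15 pair. With the lower floor and with no floor, low signal sets the rise: the added genes lay under 132 on at least 1 array. Of 236 values of the other 35 named genes, 231 moved by less than the scatter of 0.19; the other 5 belong to M17 and AT1G20490, each under the floor in ros1-1, and M17 was at -1.67 with the lower floor, -0.85 with the offset and -2.20 with no floor. Percentiles within the arrays moved by at most 0.79 among plain _at probe sets. No paired analysis was possible because each genotype has 1 array and the result comes from no test.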
